A study of Mus musculus with 12 samples.

Results

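A group of 10 genes of major histocompatibility complex (MHC) class I antigen presentation was examined in the livers of 6 WT and 6 Marchf6 LKO mice: Mr1, Cd1d1, B2m, H2-K1, H2-D1, Tap1, Tap2, Tapbp, Erap1 and Nlrc5. These 10 genes were found by symbol among the 54232 genes of the count table, and all 10 were among the 17509 genes tested. The list was chosen by the difference of Mr1 between LKO and WT livers in these same libraries, to which the other genes of its pathway were added. The LKO–WT values of the 10 genes are therefore given as a description, without a test. LKO mice were Marchf6 fl/fl AlbuminCre+, and WT mice were Marchf6 fl/fl AlbuminCre- littermates, so both groups carried the floxed allele and the LKO mice alone carried Cre. All were C57Bl/6J males of 10 weeks on chow, fasted for 4 h, and 1 library was made per liver. Cre was driven by the albumin promoter, which is active in hepatocytes, whereas RNA came from whole liver, in which other cells keep Marchf6. In bulk tissue, fewer cells of a type and less RNA per cell cannot be told apart.

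Class I molecules consist of a heavy chain and beta-2 microglobulin and show peptides from inside the cell to T cells. TAP carries peptides into the endoplasmic reticulum, ERAP1 trims them, and tapasin, with calreticulin and ERp57, helps to load them. MR1 and CD1D are built in the same way but hold small metabolites and lipids instead, which are seen by MAIT cells and NKT cells. NKT cells are common in mouse liver, whereas MAIT cells are scarce in laboratory mice. Transcription of the classical heavy chain genes, of B2m and of Tap1 is driven by NLRC5 and raised by interferon.

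Livers had 14860414 to 22111926 reads counted on genes. Marchf6 itself had 241 ± 8.36 normalized CPM, the TMM-scaled reads of a gene relative to all reads counted in the liver, in WT and 226 ± 16.5 in LKO livers (n = 6 each, SD), or a log2 fold change of -0.09 (SE 0.060, adjusted p = 0.585, edgeR). The design text of the series places the deletion at exon 2, the methods name exon 2 or the third exon in different sentences, and a count over the whole gene does not check the loss of 1 exon. All WT library numbers precede those of the LKO livers, so genotype and library order cannot be told apart. Hepatocyte markers dominated, with Alb at 76079 ± 7053 CPM in WT and 66977 ± 2145 in LKO livers (SD, n = 6 each).

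The sequences before the starts of Mr1, B2m, H2-K1 and H2-D1 are shown because these 4 genes encode the shared light chain and heavy chains that pair with it. For Cd1d1, a further such heavy chain, no RefSeq window was at hand. Among the 4 genes the LKO and WT livers separated in Mr1 alone, by which the list was chosen. Any relation of the sequences to that difference was not tested. Each sequence is the 250 bases upstream of the RefSeq start in GRCm38.p6, written 5′ to 3′ on the strand of the gene. They lie at chr1:155146815-155147064 (minus strand) for Mr1, chr2:122147437-122147686 (plus) for B2m, chr17:34000348-34000597 (minus) for H2-K1 and chr17:35262844-35263093 (plus) for H2-D1. Capitals mark matches, on either strand, to 5 short motifs, which are described after the sequences.
Mr1: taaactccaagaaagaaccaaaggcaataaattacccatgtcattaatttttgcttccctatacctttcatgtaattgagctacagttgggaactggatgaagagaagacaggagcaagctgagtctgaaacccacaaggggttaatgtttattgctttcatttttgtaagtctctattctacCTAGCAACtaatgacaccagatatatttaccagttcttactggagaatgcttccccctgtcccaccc
B2m: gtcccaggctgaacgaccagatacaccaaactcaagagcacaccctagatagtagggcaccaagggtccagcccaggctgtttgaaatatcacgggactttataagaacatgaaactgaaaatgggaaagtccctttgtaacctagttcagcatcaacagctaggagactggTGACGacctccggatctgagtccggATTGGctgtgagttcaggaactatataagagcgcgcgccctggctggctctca
H2-K1: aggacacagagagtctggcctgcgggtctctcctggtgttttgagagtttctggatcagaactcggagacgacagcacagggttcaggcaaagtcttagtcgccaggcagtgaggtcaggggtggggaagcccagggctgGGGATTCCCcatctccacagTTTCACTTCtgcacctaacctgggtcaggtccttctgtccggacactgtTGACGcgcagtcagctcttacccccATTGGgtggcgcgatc
H2-D1: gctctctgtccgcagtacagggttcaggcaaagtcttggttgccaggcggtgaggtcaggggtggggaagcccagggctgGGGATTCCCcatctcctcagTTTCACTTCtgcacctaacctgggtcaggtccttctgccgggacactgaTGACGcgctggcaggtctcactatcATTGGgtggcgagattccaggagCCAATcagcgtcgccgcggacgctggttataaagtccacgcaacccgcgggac

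The motifs searched were GGGATTCCC, the kappaB core of enhancer A, and GAANNGAAA. The latter is the form that the interferon-stimulated response element takes in the H2-K1 and H2-D1 windows. The others were CTAGCAAC, TGACG and CCAAT, the cores of the X1, X2 and Y boxes, the module at which RFX, CREB/ATF and NF-Y factors gather with NLRC5. Their letters were chosen after the promoters had been read. Of 32851 RefSeq windows of this length, 0.301% held the kappaB core, 6.31% the interferon element, 1.13% the X1 core, 17.8% the X2 core and 33.8% the Y box. H2-K1 held the kappaB core at -110 to -102 from the start, the interferon element at -90 to -82, the X2 core at -41 to -37 and the Y box at -16 to -12. H2-D1 held the same 4 in the same order, each 60 bases farther from the start, and a further Y box at -53 to -49. At that shift, 166 of 190 bases (87.4%) were the same in both windows. These distances depend on the start taken. RefSeq gave 2 windows for H2-K1, of which the first was used. The H2-D1 window lies inside the span of H2-D1 in the GENCODE annotation, chr17:35262730-35267499. B2m held the X2 core at -78 to -74 and the Y box at -53 to -49, and no other match in these letters. Its window also holds gaaactgaaa and gggaaagtccc, near forms of the interferon element and the kappaB core. Near forms were not searched in any window. Mr1 held 1 match, the X1 core at -67 to -60, and none of the other 4 motifs in these letters. No other member with a window, the classical heavy chain genes included, held the X1 core in these letters. Among the other members with a window, Tap1 held an X2 core and a Y box, Tapbp held 2 Y boxes and Erap1 held no match.

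**Figure D1:**
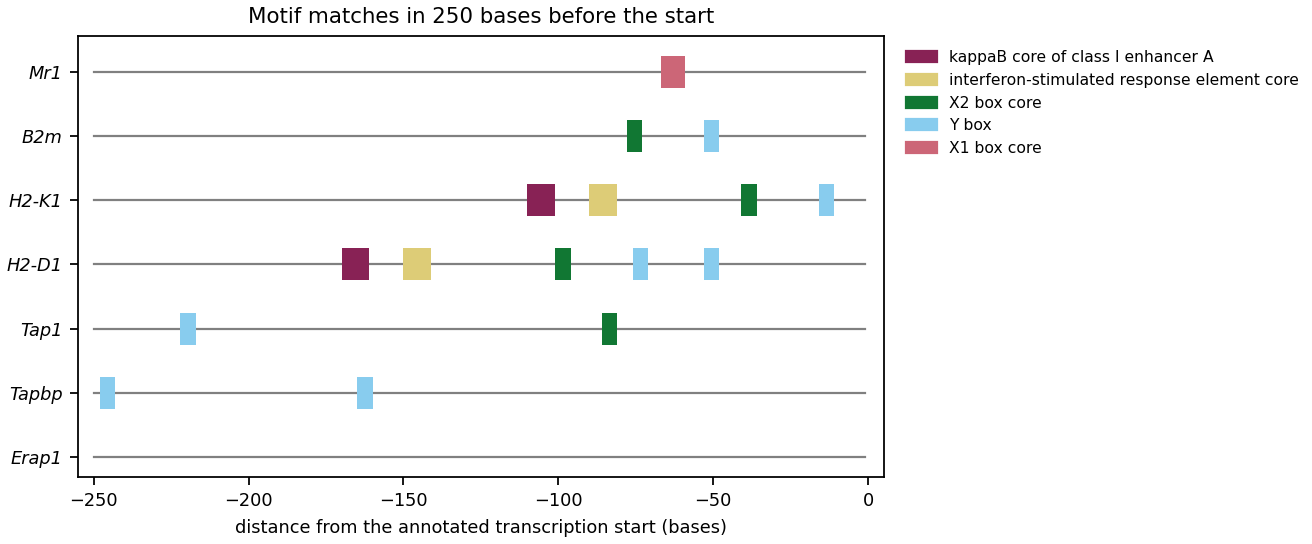
Matches to 5 promoter motifs in the 250 bases before the start of 7 of the class I genes, drawn as boxes at their distance from the start in bases (1 line per gene, 1 colour per motif). H2-K1 and H2-D1 hold the same 4 motifs at a shift of 60 bases, Mr1 holds a single match at -67 to -60, and Erap1 holds none. Only exact matches to the letters searched are drawn, and near forms are not.

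Mr1 (ENSMUSG00000026471), the heavy chain that presents vitamin B metabolites to MAIT cells, lies on the minus strand at chr1:155127277-155146814 (GRCm38). WT livers 1 to 6 had 9.46, 6.94, 9.27, 8.01, 6.60 and 8.75 CPM of Mr1. LKO livers 1 to 6 had 14.8, 18.1, 21.1, 18.4, 20.2 and 20.1 CPM. Every LKO liver lay above every WT liver, and the lowest LKO value was that of replicate 1. The mean was 8.17 ± 1.20 in WT and 18.8 ± 2.25 in LKO livers (n = 6 each, SD), or a log2 fold change of 1.20 (SE 0.11) or 2.30-fold. These values rest on 118 to 146 reads in each WT library and on 270 to 470 in each LKO library, and the counting error at 118 reads is 9.21%, against a coefficient of variation of 14.7% between WT livers.

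An adjusted p under 0.05 was reached by 75 of 17509 genes (0.428%) in edgeR, and the 6 LKO livers were all above or all below the 6 WT livers in 228 (1.30%). Among the 10 class I genes, 1 was called and 1 did not overlap, in both cases Mr1, by which the list was chosen. The difference of Mr1 was matched or exceeded on the log2 scale by 115 genes tested, itself included, of which 24 were called. The other 9 genes ranged from -0.16 to 0.17, with 5 higher and 4 lower, and the median of all 10 was 0.04, against 0.00016 over all genes tested. Mr1 shared no stretch of 50 bases with transcripts of another gene, and no annotated gene overlapped it. Its nearest tested neighbours were Ier5, an immediate early gene 27641 bp away at lower coordinates, and Stx6, a syntaxin gene 11901 bp away at higher coordinates. Ier5 had a log2 fold change of 0.06 (SE 0.19, adjusted p = 0.946, edgeR) and Stx6 one of 0.09 (SE 0.073, adjusted p = 0.667, edgeR).

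**Figure D2:**
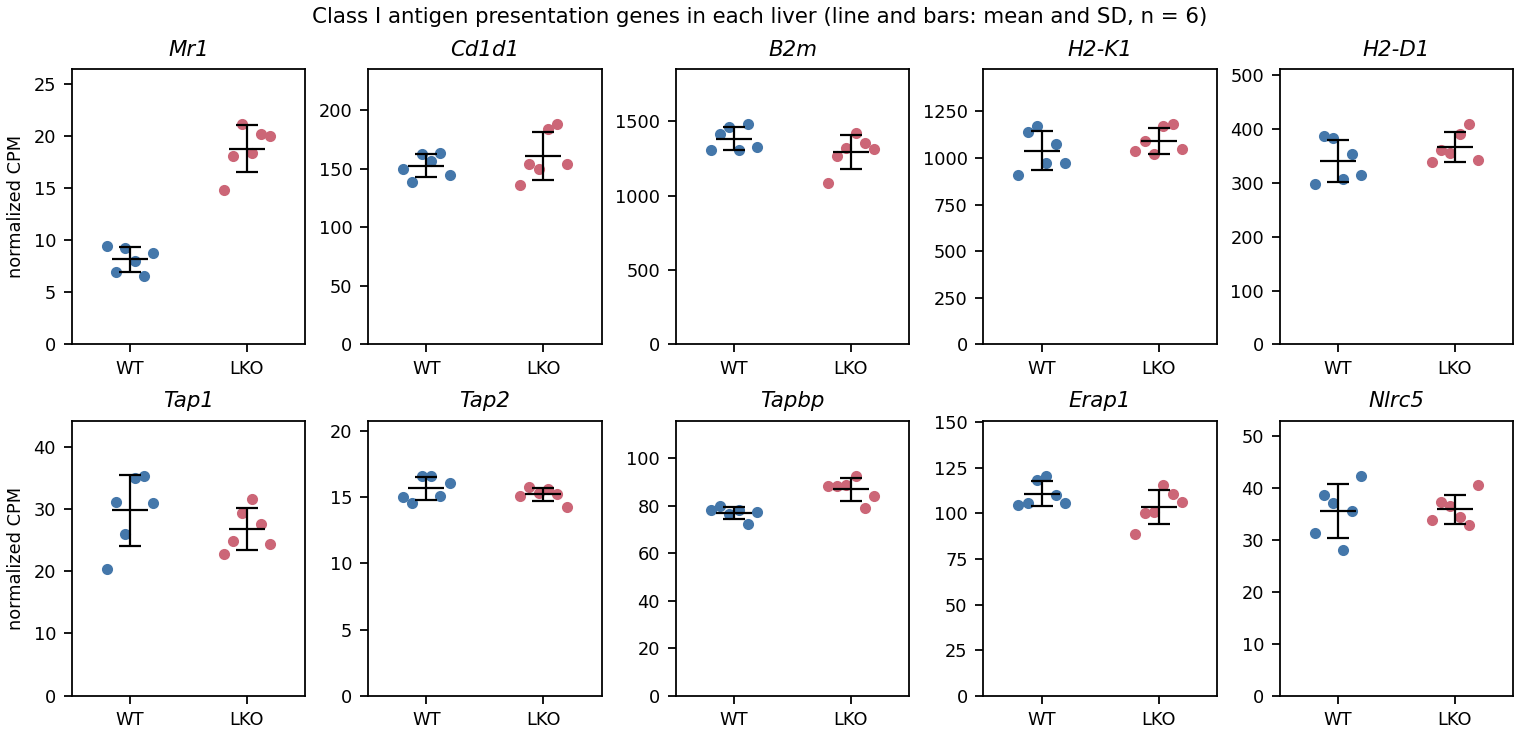
Normalized CPM of the 10 class I genes in each liver, with 6 WT and 6 LKO livers as points and the mean and SD as line and bars, on axes that start at 0. Mr1 runs from 6.60 to 9.46 in WT and from 14.8 to 21.1 in LKO livers, and in each of the other 9 genes the groups overlap.

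Cd1d1 (chr3:86995834-86999441), the lipid-presenting relative of Mr1, ran from 138 to 163 CPM in WT livers (median 153) and from 136 to 188 in LKO livers (median 154). The groups overlapped, with 2 LKO livers above and 1 below all WT livers. The log2 fold change was 0.08 (SE 0.082). Of the 50-base stretches of its transcripts, 19.1% also occur in Cd1d2, its near copy, which had a mean of 2.11 CPM in WT and 1.44 in LKO livers.

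B2m (chr2:122147686-122153083), the light chain that MR1, CD1D and the classical heavy chains share, ran from 1309 to 1480 CPM in WT livers (median 1370) and from 1083 to 1422 in LKO livers (median 1316). Its log2 fold change was -0.10 (SE 0.072), and 2 LKO livers lay below all WT livers. Thus the common light chain did not separate the groups.

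H2-K1 (chr17:33996017-34000347), a classical heavy chain, ran from 908 to 1169 CPM in WT livers (median 1025) and from 1022 to 1180 in LKO livers (median 1067), a log2 fold change of 0.07 (SE 0.075). H2-D1 (chr17:35262730-35267499), the other classical heavy chain of this strain, ran from 298 to 387 CPM in WT livers (median 334) and from 339 to 409 in LKO livers (median 358), a log2 fold change of 0.10 (SE 0.081). In both genes 2 LKO livers lay above all WT livers and none below. Heavy chain genes are near copies, and 9.63% of the 50-base stretches of H2-K1 and 12.8% of those of H2-D1 occur in transcripts of other genes, so reads may have been split between them.

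Among the peptide supply genes, Tapbp (chr17:33915899-33929292), which encodes tapasin, had the largest difference after Mr1. It ran from 72.4 to 79.9 CPM in WT livers (median 77.6) and from 78.8 to 92.6 in LKO livers (median 88.1). Of the LKO livers, 5 lay above all WT livers, and replicate 5, at 78.8 CPM, did not. The log2 fold change was 0.17 (SE 0.054). Tapbp shares 149 exonic nt with Zbtb22 on the same strand and 904 nt with the antisense gene Gm19412, and whether reads were counted by strand is not stated.

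Tap1 (chr17:34187553-34197225), a subunit of the peptide transporter, ran from 20.4 to 35.3 CPM in WT livers (median 31.0) and from 22.8 to 31.6 in LKO livers (median 26.2), so that every LKO liver lay within the WT range. Its log2 fold change was -0.16 (SE 0.12). Tap2 (chr17:34203527-34216321), the partner subunit, ran from 14.5 to 16.6 CPM in WT livers (median 15.6) and from 14.3 to 15.8 in LKO livers (median 15.3), with a log2 fold change of -0.04 (SE 0.062). The subunits thus differed in spread, with a coefficient of variation between WT livers of 19.2% for Tap1 and 5.73% for Tap2. Tap1 shares 212 exonic nt with Psmb9 on the opposite strand, and Tap2 shares 533 nt with Gm15821 and 165 nt with Gm20496.

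Erap1 (chr13:74639568-74693201), the trimming peptidase, ran from 105 to 121 CPM in WT livers (median 108) and from 88.7 to 116 in LKO livers (median 103), a log2 fold change of -0.10 (SE 0.070). Of the LKO livers, 3 lay below all WT livers. Nlrc5 (chr8:94434356-94527272), the transactivator of class I genes, ran from 28.0 to 42.3 CPM in WT livers (median 36.3) and from 32.8 to 40.4 in LKO livers (median 35.3), all within the WT range, with a log2 fold change of 0.01 (SE 0.092). Erap1 shares 834 exonic nt with Cast, and Nlrc5 shares 78 nt with 9330175E14Rik.

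To compare levels between genes, CPM were divided by the exonic length of each gene in kb. B2m had the highest level, at 1609 CPM per kb in WT and 1504 in LKO livers. It was followed by H2-K1 (354 CPM per kb in WT livers), H2-D1 (132), Cd1d1 (59.3), Tapbp (21.2), Erap1 (15.2), Tap1 (5.44), Nlrc5 (4.17), Tap2 (4.14) and Mr1 (1.37). The order was the same in LKO livers, where Mr1 had 3.14 CPM per kb and remained the lowest, below Tap2 at 4.03. In both groups, Tap1 and Nlrc5 overlapped between livers, as did Nlrc5 and Tap2, and the other neighbours in the order did not. Per kb, the level of the heavy chain of MR1 thus stayed below those of its light chain and of Cd1d1 in every liver.

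Of 70 other genes of the pathway, in 7 lists, 67 were tested, and 1 of them (1.49%) was called, against 0.428% of all genes. The lists were written with earlier results of these libraries known. In all, 33 were higher and 34 lower in LKO livers, with a median log2 fold change of -0.01, 18 had an unadjusted p under 0.05, as did 11.7% of all genes, and in 2 (2.99%) the groups did not overlap, against 1.30% of all genes. Limma voom also called 1 of the 67 genes, Npc2, and 0.485% of all genes. DESeq2 called 2.31% of all genes with an adjusted p, and 7 of the 67 pathway genes, a larger share. These were 1 other heavy chain gene, 2 peptide loading genes, 3 CD1D lipid loading genes and 1 interferon-induced gene.

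**Figure D3:**
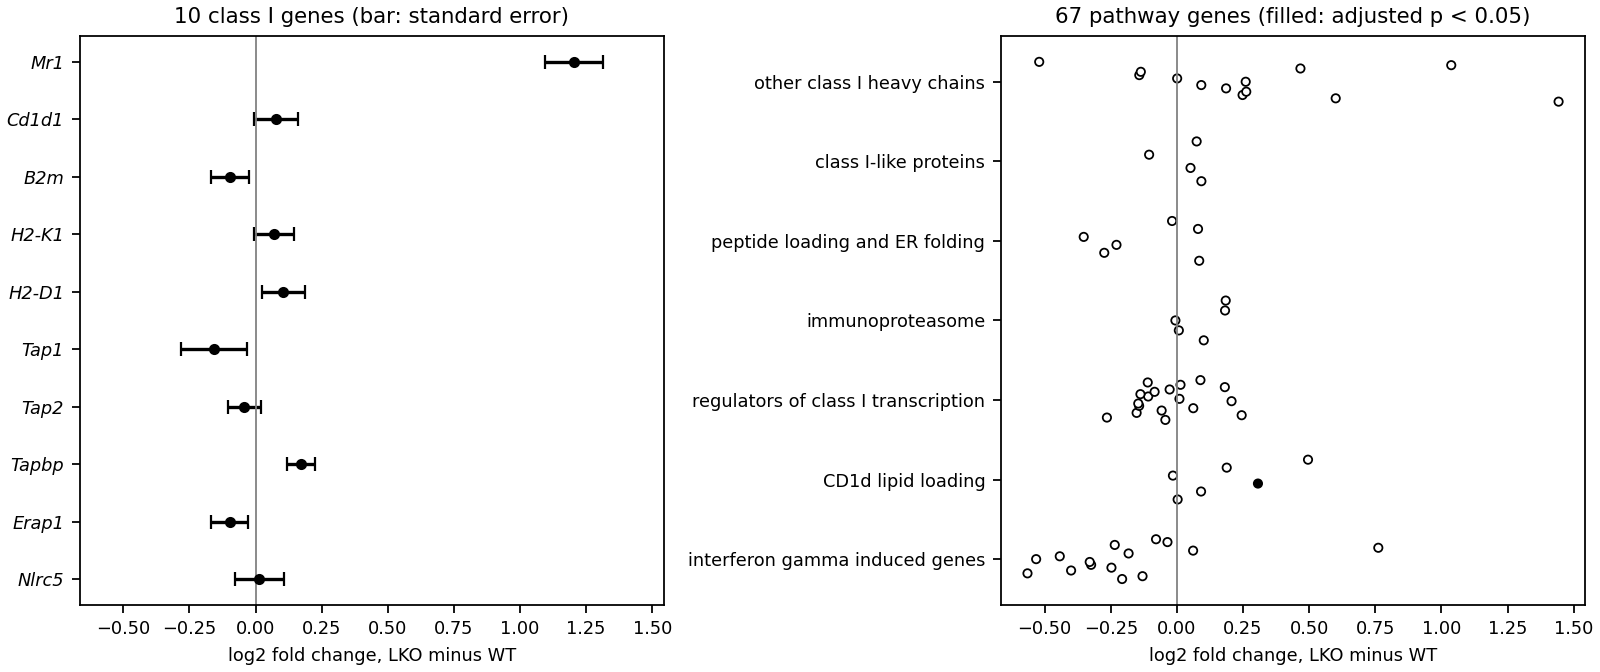
Log2 fold changes, LKO minus WT, of the 10 class I genes with their standard errors (left) and of the 67 tested genes of 7 pathway lists, 1 circle per gene (right), with the gene past an adjusted p of 0.05 filled. Mr1 stands at 1.20 with the other 9 genes between -0.16 and 0.17, and the filled circle is Npc2 at 0.31.

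Npc2, in the list of genes that load lipids onto CD1D, was the gene called. It encodes a lysosomal sterol carrier. Its CPM ran from 49.4 to 60.8 in WT and from 63.8 to 74.5 in LKO livers, without overlap. The means were 56.7 ± 3.99 and 70.1 ± 3.90 (n = 6 each, SD), or a log2 fold change of 0.31 (SE 0.062, adjusted p = 0.0475, edgeR). When single livers were left out, the call held in 2 of 12 fits, those without WT replicate 3 and without LKO replicate 2, and was lost without any one of the other 10. Of the 6 genes of this list, 5 were higher and 1 lower, and 3 had an unadjusted p under 0.05 (edgeR). Ctss, a lysosomal protease named after its values were seen, had the largest log2 fold change of the list, 0.50 (SE 0.13, adjusted p = 0.126, edgeR). Ctsl, of the same protease family, had a log2 fold change of 0.19 (SE 0.060, adjusted p = 0.215, edgeR), Lamp1, a lysosomal membrane protein, one of -0.01 and Mttp, a lipid transfer protein needed for CD1D assembly, one of 0.00.

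Other class I heavy chain genes were tested for 13 of 15 listed, of which 10 were higher and 3 lower, none was called, and 6 had an unadjusted p under 0.05 (edgeR). Their median log2 fold change was 0.25, and 0.15 without WT replicate 2. H2-Q10, a secreted heavy chain made by the liver, had 1709 ± 123 CPM in WT and 1822 ± 239 in LKO livers (SD, n = 6 each), with a log2 fold change of 0.09. H2-T23, which encodes Qa-1, had a log2 fold change of -0.14 and H2-T22 one of 0.00. H2-Q1, chosen after its values were seen, had the largest log2 fold change of the lists, 1.44 (SE 0.34, adjusted p = 0.0815, edgeR). WT livers 1 to 6 had 3.39, 3.35, 14.9, 5.52, 7.43 and 6.31 CPM of H2-Q1, and LKO livers 1 to 6 had 26.9, 10.5, 11.0, 22.8, 18.5 and 21.4 CPM. WT replicate 3 stood above 2 LKO livers, and without it H2-Q1 passed an adjusted p of 0.05. Of its 50-base stretches, 15% occur in transcripts of 24 other genes, 9.05% in those of H2-Q2.

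Peptide loading and folding genes of the endoplasmic reticulum were lower in 4 of 6 cases, none was called, and 3 had an unadjusted p under 0.05 (edgeR). These 3 were the abundant chaperones. Pdia3, which encodes ERp57, had 549 ± 42.3 CPM in WT and 430 ± 49.9 in LKO livers (n = 6 each, SD), or a log2 fold change of -0.35 (adjusted p = 0.0878, edgeR), and its groups did not overlap. Calr (calreticulin) had a log2 fold change of -0.27 (adjusted p = 0.25, edgeR) and Canx (calnexin) one of -0.23 (adjusted p = 0.168, edgeR). The summed CPM of the 6 genes ran from 1964 to 2356 in WT and from 1449 to 1946 in LKO livers, without overlap. Tapbp, which acts in the same loading complex, lay in the opposite direction.

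The immunoproteasome list, whose enzymes cut class I peptides, held 5 genes, 4 higher and 1 lower, none was called, and 2 had an unadjusted p under 0.05 (edgeR). Psme1 and Psme2, the subunits of the PA28 activator, each had a log2 fold change of 0.18 (adjusted p = 0.215 and 0.288, edgeR), and Psmb10, a catalytic subunit, had one of -0.01. Of the class I-like genes, 3 of 4 were higher, none was called and 0 had an unadjusted p under 0.05 (edgeR). Azgp1 (zinc-alpha-2-glycoprotein) had a log2 fold change of -0.10, Fcgrt (the neonatal Fc receptor) of 0.09 and Hfe, which controls iron uptake, of 0.05.

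Among 18 regulators of class I transcription, 7 were higher and 11 lower, and none was called. Irf2, an interferon regulatory factor, had 101 ± 14.5 CPM in WT and 84.5 ± 11.6 in LKO livers (n = 6 each, SD), or a log2 fold change of -0.26 (adjusted p = 0.325, edgeR), and was the 1 gene of the list with an unadjusted p under 0.05. Jak1, a kinase of the interferon receptors, had a log2 fold change of -0.11 and Rela, a subunit of NF-kappaB, one of -0.03.

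Of 16 genes induced by interferon gamma, 15 were tested, 2 were higher and 13 lower, none was called by edgeR, 3 had an unadjusted p under 0.05 and the median was -0.23. DESeq2 called 1 of them, Iigp1. Ido1 had 0 reads in every liver. Iigp1, an interferon-induced GTPase, had 453 ± 107 CPM in WT and 313 ± 44.4 in LKO livers (n = 6 each, SD), or a log2 fold change of -0.53 (adjusted p = 0.11, edgeR). Irgm1 and Irgm2, of the same GTPase family, had log2 fold changes of -0.32 and -0.33. WT replicate 2 stood apart in this list, with a summed level of 964 CPM against 552 to 615 in the other WT livers and 405 to 561 in LKO livers. Without it, 9 of 15 genes were lower and the median was -0.05. Mr1 had 6.94 CPM in that liver, and its relation to this list was not tested.

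Markers of other liver cells were set beside these values. All 12 Kupffer cell markers were higher in LKO livers, none was called and 9 had an unadjusted p under 0.05 (edgeR), while DESeq2 called 3. Their summed CPM ran from 150 to 205 in WT and from 184 to 314 in LKO livers. With this sum as a covariate, a fit chosen after the data had been seen, Mr1 had a log2 fold change of 1.28. All 7 stellate cell markers and all 5 B cell markers were also higher, none of them called, with 1 and 4 at an unadjusted p under 0.05 (edgeR). Of the 8 hepatocyte markers, 6 were lower, none was called and 1 had an unadjusted p under 0.05 (edgeR). The endothelial markers were higher in 7 of 8 cases and the bile duct markers in 2 of 4, none called by edgeR, each list with 1 gene at an unadjusted p under 0.05, and DESeq2 called 1 endothelial marker. The summed B cell markers ran from 0.967 to 1.88 CPM in WT and from 1.81 to 3.29 in LKO livers, the dendritic cell markers from 10.2 to 13.6 and from 13.3 to 15.9, and the hepatocyte markers from 100113 to 122355 and from 93406 to 101451. Of 18 T and NK cell markers, 13 were tested, 7 were higher, 6 lower, none called and 2 had an unadjusted p under 0.05 (edgeR). Their sum ran from 23.7 to 132 CPM in WT and from 15.9 to 107 in LKO livers, most of it Zbtb16 (74.1 ± 47.0 CPM in WT livers, SD, n = 6), while the T cell receptor chain Trac had 0.338 ± 0.147 and 0.281 ± 0.167 (SD, n = 6 each). The sum thus mostly follows Zbtb16 and does not measure the number of T and NK cells. None of the 18 was at 0 in every liver, and 7 were at 0 in at least 1. With the genotype means taken off, Mr1 had a Pearson r of -0.26 with the Kupffer sum (rho -0.36, permutation p 0.413 and 0.253) and of 0.48 with the hepatocyte sum (rho 0.46, permutation p 0.156 and 0.174) over 12 livers. Across the 8 marker lists, the lowest adjusted permutation p was 0.826.

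**Figure D4:**
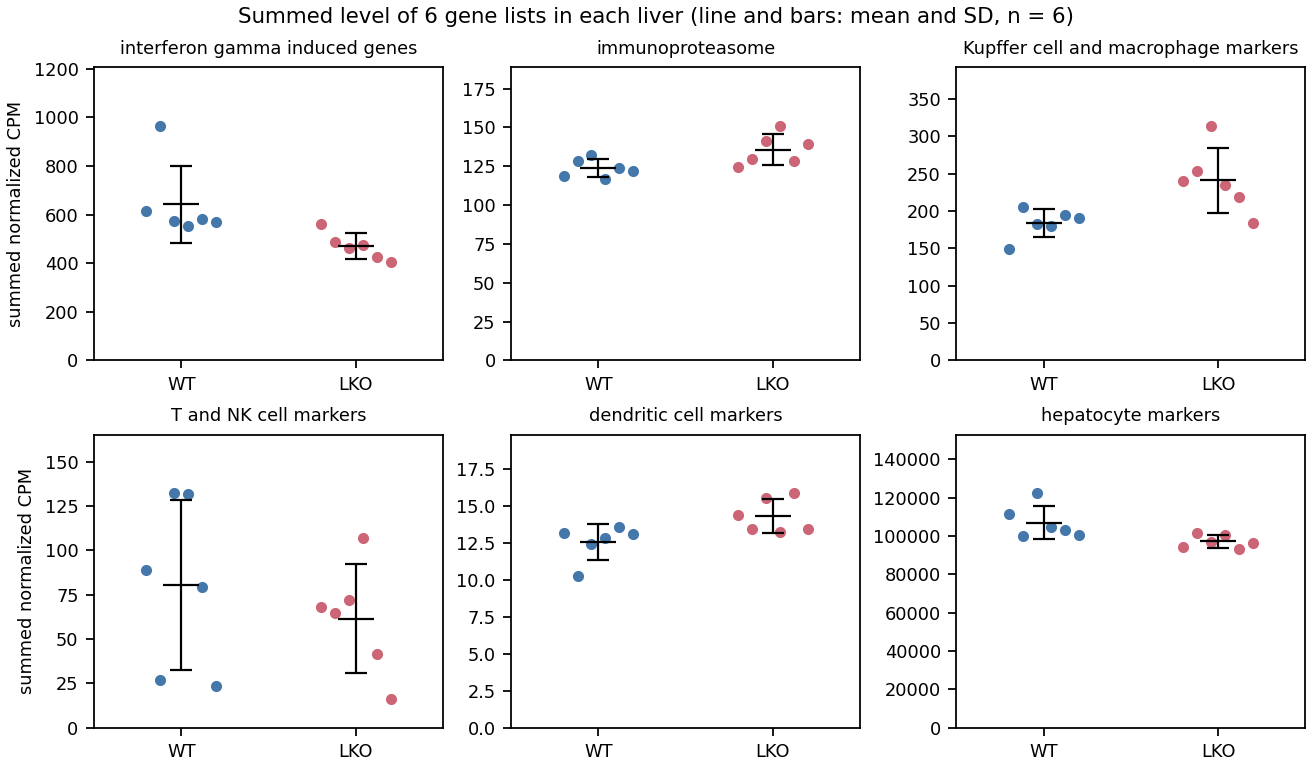
Summed normalized CPM of 2 pathway lists and 4 marker lists in each liver, with 6 WT and 6 LKO livers as points and the mean and SD as line and bars, on axes that start at 0. In the interferon list WT replicate 2 stands at 964 with the other WT livers at 552 to 615, and in the Kupffer list the LKO livers reach 314 where the WT livers end at 205. The sum of the T and NK cell list is mostly Zbtb16.

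Finally, the 10 genes were compared between livers of one genotype, a measure that the choice of Mr1 did not use. After the mean of each genotype had been taken off log2 CPM, 2 of the 45 pairs had an adjusted permutation p under 0.05 over 12 livers, and 6 had an unadjusted one. H2-K1 and H2-D1 had a Pearson r of 0.97 (adjusted permutation p 0.00675) and a rho of 0.92 (adjusted permutation p 0.0337). Within WT livers r was 0.98 and within LKO livers 0.94, and without the 2 livers farthest from the median of H2-K1 it was 0.96. No gene tested had a higher r with H2-K1. Both genes share 50-base stretches with transcripts of other heavy chain genes, as given above, and the part of such shared reads in this correlation was not tested.

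Cd1d1 and Erap1 had a Pearson r of 0.85 (adjusted permutation p 0.0364) and a rho of 0.77 (adjusted permutation p 0.108), with r at 0.68 within WT and 0.92 within LKO livers, and 0.80 without the 2 livers farthest from the median of Cd1d1. This pair passed in 3 of the 12 fits without 1 liver, those without WT replicate 2, 4 or 5, and was lost without any one of the other 9. Without WT replicate 2, 6 pairs passed. These were H2-K1 with H2-D1, Cd1d1 with each of B2m, H2-K1, H2-D1 and Erap1, and B2m with H2-D1.

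Over all 12 livers, B2m had an r of 0.70 with H2-D1, 0.65 with H2-K1, 0.73 with Erap1 and 0.72 with Cd1d1, with adjusted permutation p-values of 0.121, 0.121, 0.154 and 0.121. Mr1 passed with none of the other 9 genes, with r between -0.31 and 0.39 and the lowest adjusted permutation p at 0.662. Its r with B2m, its own light chain, was 0.24, from -0.49 within WT to 0.79 within LKO livers, and this difference was not tested.

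**Figure D5:**
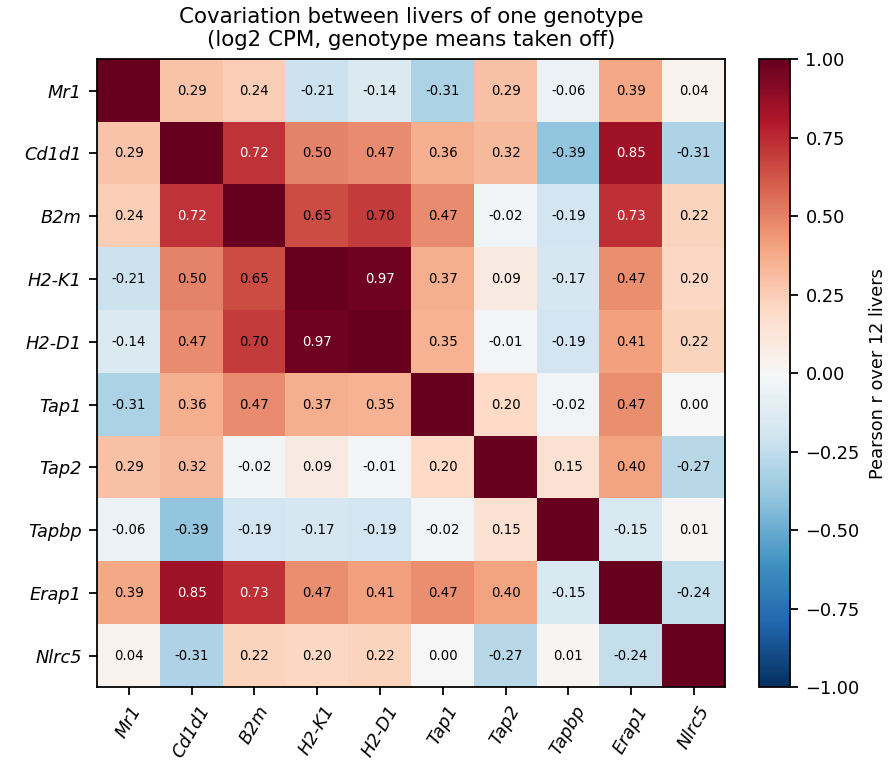
Pearson r between the 10 class I genes over 12 livers, in log2 CPM with the mean of each genotype taken off, from -1 (blue) to 1 (red), with r written in each cell. H2-K1 with H2-D1 is the strongest pair at 0.97, and the row of Mr1 stays between -0.31 and 0.39.

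The genes most like Mr1 were sought among 12775 genes with a mean of at least 1 CPM, as a description over the 12 livers. With the genotype difference left in, the 5 closest were Gpc6 (r 0.97), Vegfb (0.97), Clta (0.95), Adam11 (0.94) and Gstm1 (0.93), and r here contains the difference between the groups by which Mr1 was chosen. Gpc6 encodes a glypican, Vegfb a growth factor, Clta a clathrin light chain and Gstm1 a glutathione transferase. Adam11, a membrane protein of the ADAM family, had a level near that of Mr1 in both groups, 7.99 ± 1.32 CPM in WT and 18.0 ± 2.24 in LKO livers (SD, n = 6 each). With the genotype means taken off, the 4 closest were Pola1 (r 0.86), Gm11966 (0.86), Entpd2 (0.85) and Pla2g16 (0.85), and none of these 4 was called between LKO and WT livers, with log2 fold changes from 0.02 for Pola1 to 0.34 for Pla2g16. None of these 4 was among the 5 closest with the genotype difference left in.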

How the data were processed

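Liver RNA of 6 WT and 6 LKO mice, grouped by the genotype in the labels, was sequenced as mRNA libraries. Trimming used Trimmomatic 0.36, alignment to GRCm38.p6 (Ensembl 93) HISAT2 2.1.0, and counting HTSeq 0.6.1, all run by the authors. What they deposited is a table of raw counts per Ensembl gene, not normalized. Strand setting and overlap mode are not given in the sources used here. Depth was 14860414 to 22111926 counts per liver, which covers counting error only.

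Here, 54165 of 54232 gene identifiers were matched to GENCODE M21. A gene was kept if 6 or more livers had over 2 reads of it (17509 genes). TMM-scaled counts were tested in edgeR 4.0.16 (quasi-likelihood, R 4.3.3), genotype being the sole term, and p-values were adjusted over all genes by Benjamini-Hochberg. CPM are TMM-normalized, and log2 CPM carry a prior count of 0.5. Correlations over 12 livers were tested with 100000 shuffles within genotype (two-sided), whose smallest possible p is 1e-05. Promoter windows are from RefSeq. The table used held windows for 7 of the 10 genes. The scripts were tested on simulated data. The members and lists were chosen with earlier results of these data known.

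The text names the 10 genes, pathway genes with an adjusted p under 0.05, up to 3 most abundant genes of each list, the 5 genes most like Mr1 by either measure, and neighbours and overlapping genes. Of the genes this rule names, 1 is not reported here. Alternatives were RLE and upper-quartile scaling, no filter, 10 reads in every liver, limma voom (limma 3.58.1), DESeq2 1.42.0, a replicate block, each liver left out, and the Kupffer covariate, which was added after the data had been seen.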

Additional observations from a re-analysis of the deposited data

Results flagged for a closer look

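In 64 groups of 6 livers, the highest and lowest liver were set against the other 5, and in 6 groups the gap of 1 liver to its neighbour took up more of the whole range than Dixon's 95% critical value allows. Chance gives about 1 in 20 groups, or 3.2. None of them was for 1 of the 10 class I genes. WT replicate 2 was the highest WT liver for H2-Q10 (share of the range 0.734, 1952 CPM with the next at 1703), Iigp1 (0.686, 663.5 and 466.5), Irgm1 (0.717, 99.1 and 64.19) and Irgm2 (0.691, 88.75 and 57.47). Without this liver, the log2 fold changes were 0.13 for H2-Q10, -0.39 for Iigp1, -0.15 for Irgm1 and -0.15 for Irgm2. LKO replicate 1 was the highest LKO liver for Irgm1 (0.726, 65.49 and 49.6 CPM), and LKO replicate 5 was the lowest for Pdia3 (0.651, 336.2 and 429.7 CPM).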

How the results depend on the processing

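For the 10 class I genes, all 200 log2 fold changes under the alternatives stayed within 1 SD of the value reported, and Mr1 ran from 1.15 to 1.28. Nlrc5 turned sign in 4 of them, from -0.04 to 0.07. Tap1 moved by more than its SE, from -0.16 (SE 0.12) to -0.37 (SE 0.16) with the Kupffer covariate. The 75 genes called became 114 with no filter, 350 with DESeq2, 11 with the Kupffer covariate, and 38 (without WT replicate 5) to 132 (without WT replicate 3) with 1 liver left out. The 1 pathway gene called, Npc2, became 2 with no filter (with H2-Q1), 7 with DESeq2 (Npc2, H2-Q1, Canx, Pdia3, Ctsl, Ctss and Iigp1), 0 with the Kupffer covariate, and 0 to 2 with 1 liver left out. The cause was not tested. Npc2 itself kept a log2 fold change of 0.29 with the covariate, 0.31 with the block and 0.27 to 0.33 with 1 liver left out. Of 440 values of named pathway genes, 393 kept direction and side of the threshold, 12 lost and 4 gained a call, and 31 values, all of genes that were not called, turned sign. H2-T22 (0.0010 as reported) was -0.0029 with RLE, -0.0024 with the block, -0.0041 with voom, -0.0032 with DESeq2, -0.065 with the covariate and -0.072 to 0.039 with 1 liver left out. Mttp was -0.00079 with RLE, -0.00067 with DESeq2 and -0.030 to 0.063 with 1 liver left out. Lamp1 was 0.0020 with upper-quartile scaling, 0.00046 with no filter and -0.034 to 0.0051 with 1 liver left out. Psmb10 was 0.011 with upper-quartile scaling, 0.0091 with no filter, 0.0028 with 10 reads in every liver and -0.057 to 0.058 with 1 liver left out. Rela ran from -0.075 to 0.015 with 1 liver left out, and H2-Q10 was -0.041 with the covariate. The 2 correlated pairs became 1 by Spearman correlation and 1 to 6 with 1 liver left out, 6 of them without WT replicate 2. The replicate number as a block gave 97 genes called and 0 pathway genes called. Deviations of same-numbered livers correlated at -0.18 to 0.29, over 0.1 in 5 of 6 pairs, and 1 of 6 WT livers correlated best with its own number, so the numbers were not taken as a pairing. With 118 reads in the lowest liver, depth limits Mr1 to a counting error of 9.21%.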
